A study of Mus musculus with 3 samples.

Results

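The 9 Wnt ligand genes described here, Wnt2, Wnt4, Wnt5a, Wnt5b, Wnt6, Wnt9a, Wnt10a, Wnt11 and Wnt16, are 9 of the 32285 genes in the deposited matrices and were taken by name, to follow which cell classes of the developing palate hold the transcripts of each ligand and at which stage. Single cells of palatal shelves from wild-type C57BL/6J mouse embryos were profiled on embryonic days E13.5, E14.5 and E15.5, while the shelves grow, lift above the tongue and fuse. Each stage is 1 droplet library made from the pooled tissue of 3 embryos, with the dissociated cells fixed in methanol, so no difference between stages has a replicate and no p-value is given. Intervals cover counting error only and say nothing about the spread between embryos.

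Wnt proteins are secreted glycoproteins that carry a lipid added by the enzyme Porcn and leave the cell with the carrier Wls. Binding to a Frizzled receptor together with Lrp5 or Lrp6 stabilises β-catenin in the receiving cell, while binding to Frizzled with the receptor kinases Ror1 and Ror2 acts on cell shape and movement without β-catenin. In the palate, ligands come from the oral epithelium and from the neural crest mesenchyme beneath it, and mice without Wnt5a have a cleft palate. Wnt4 is best known from kidney tubule formation, Wnt6 and Wnt10a from surface ectoderm and its appendages, Wnt9a from joints, Wnt16 from cortical bone, Wnt2 from lung formation, Wnt11 from branching of the ureter, and Wnt5b as the close relative of Wnt5a.

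The genes lie on chromosomes 1 (Wnt6, 74771892 to 74785322, and Wnt10a, 74791516 to 74804179), 4 (Wnt4, 137277489 to 137299726), 6 (Wnt2, 17988940 to 18030585, Wnt16, 22288227 to 22298522, and Wnt5b, 119432531 to 119544347), 7 (Wnt11, 98835112 to 98855195), 11 (Wnt9a, 59306928 to 59333552) and 14 (Wnt5a, 28504750 to 28527448) of GRCm38, in GENCODE release M21. Wnt6 and Wnt10a are neighbours on the plus strand, 6193 bases apart with 0 coding genes between them. Wnt5a, Wnt5b, Wnt6 and Wnt11 each overlap a gene of the opposite strand (Gm2670, Fbxl14, Gm29539 and Gm8398), and the strand setting used for counting is not given in the sources used here, so reads of these pairs may not have been told apart.

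RefSeq promoter windows (build GRCm38.p6) were found for 7 of the 9 genes. The sequence just upstream of the start is shown for 4 genes whose levels the results turn on, namely Wnt4 and Wnt6, which were higher in the epithelium, and Wnt2 and Wnt16, which were called higher in the mesenchymal lineage on the last than on the first day. The window covers 250 bases before the RefSeq start, less any base inside an exon annotated by GENCODE, which leaves 104 bases for Wnt4 and 110 for Wnt2. Capitals mark matches, on either strand, to CCAAT, to TATAAA as in many core promoters (a TATA box), to the GC box GGGCGG bound by Sp1, to the core CTTTG bound by TCF/LEF factors and to the word GCCNNNGGC bound by AP-2, and neighbouring or overlapping matches run together.
Wnt4 (chr4:137277385-137277488, plus strand): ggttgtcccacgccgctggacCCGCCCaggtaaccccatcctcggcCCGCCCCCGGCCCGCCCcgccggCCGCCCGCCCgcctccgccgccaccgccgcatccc
Wnt6 (chr1:74771642-74771891, plus strand): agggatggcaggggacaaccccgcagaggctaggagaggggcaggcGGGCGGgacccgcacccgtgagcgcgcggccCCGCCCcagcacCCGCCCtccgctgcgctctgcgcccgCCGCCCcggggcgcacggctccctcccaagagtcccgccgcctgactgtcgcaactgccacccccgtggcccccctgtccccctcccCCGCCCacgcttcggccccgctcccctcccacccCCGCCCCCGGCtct
Wnt2 (chr6:18030586-18030695, minus strand): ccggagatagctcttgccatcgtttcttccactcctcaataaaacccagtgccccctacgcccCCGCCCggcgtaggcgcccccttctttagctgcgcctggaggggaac
Wnt16 (chr6:22287977-22288226, plus strand): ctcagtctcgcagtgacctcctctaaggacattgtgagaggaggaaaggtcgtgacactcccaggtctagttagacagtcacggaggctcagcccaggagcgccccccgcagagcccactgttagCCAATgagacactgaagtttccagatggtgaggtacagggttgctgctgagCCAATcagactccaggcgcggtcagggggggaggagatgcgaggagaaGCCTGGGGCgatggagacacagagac
The pieces shown hold 5 GC boxes for Wnt4, 6 for Wnt6, 1 for Wnt2 and 0 for Wnt16, whose piece holds 2 CCAAT boxes. An AP-2 word is present in the pieces of Wnt4, Wnt6 and Wnt16, and in Wnt4 and Wnt6 it overlaps a GC box. Of 32851 promoter windows of 250 bases, 32.7% hold a GC box, 33.8% a CCAAT box, 13.7% an AP-2 word, 48.6% the TCF/LEF core and 12.4% a TATA box. Those shares are for whole windows, unlike the shortened pieces of Wnt4 and Wnt2. Over its whole window Wnt4 has 8 GC boxes, and Wnt2 also has 1 CCAAT box and 1 AP-2 word. These letter matches are a description and not binding sites.

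After filtering, the libraries held 3583, 1750 and 2584 cells with 11472663, 5293977 and 8313677 unique molecular identifiers (UMIs, which count captured RNA molecules) over all deposited barcodes. Cells fell into 24 clusters, which were named from marker lists and are written as "-like". The mesenchymal lineage joins the chondrogenic-like, osteogenic-like and mesenchymal-like clusters and a lineage cluster that could not be subdivided, and in order of stage it made up 18.3%, 69.3% and 68.5% of the cells. The E13.5 library stands apart, with 1958 neural-like cells against 134 and 184, and 700 unnamed cells. Its mesenchymal-like cells were mostly 1 cluster, led by Ccl21a and Ptgds, with 372 of 482 cells, against 70 of 700 and 65 of 1155 later. Libraries shared 1 to 3 cell barcodes. Epithelial-like cells numbered 156, 168 and 331, and all 12 epithelial markers were detected in them at each stage.

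Levels are given in CPM, the usual scaling of a gene's UMIs to the total, here of the UMIs summed over the cells of a class in a library, with the exact Poisson 95% interval. Values given in a row of 3 follow the stages E13.5, E14.5, E15.5. A ligand counts as higher or lower where the ratio of (CPM + 1) passes 2-fold and its mean over the groups compared is at least 5 CPM. Between epithelial-like cells and the mesenchymal lineage, 4, 8 and 8 of the 9 ligands passed that minimum. Wnt4 was the 1 ligand higher in the epithelium at E13.5, and at each later stage Wnt4 and Wnt6 were the 2 higher. Over all genes tested, 10.3%, 13.51% and 14.7% were higher. Lower in the epithelium were 3 ligands at E13.5 (Wnt5a, Wnt5b and Wnt9a), 3 at E14.5 (Wnt5a, Wnt9a and Wnt16) and 4 at E15.5 (Wnt2, Wnt5a, Wnt9a and Wnt16), where 14.46%, 13.8% and 12.8% of all genes were lower. Of the 3 at E14.5, 1 (Wnt5a) was still called with cells thinned to 1500 UMIs or with 5 CPM added. The median log2 ratio of the ligands that passed was -1.82, -0.71 and -1.03, beside -0.01, 0.05 and 0.07 for all genes.

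**Figure D1:**
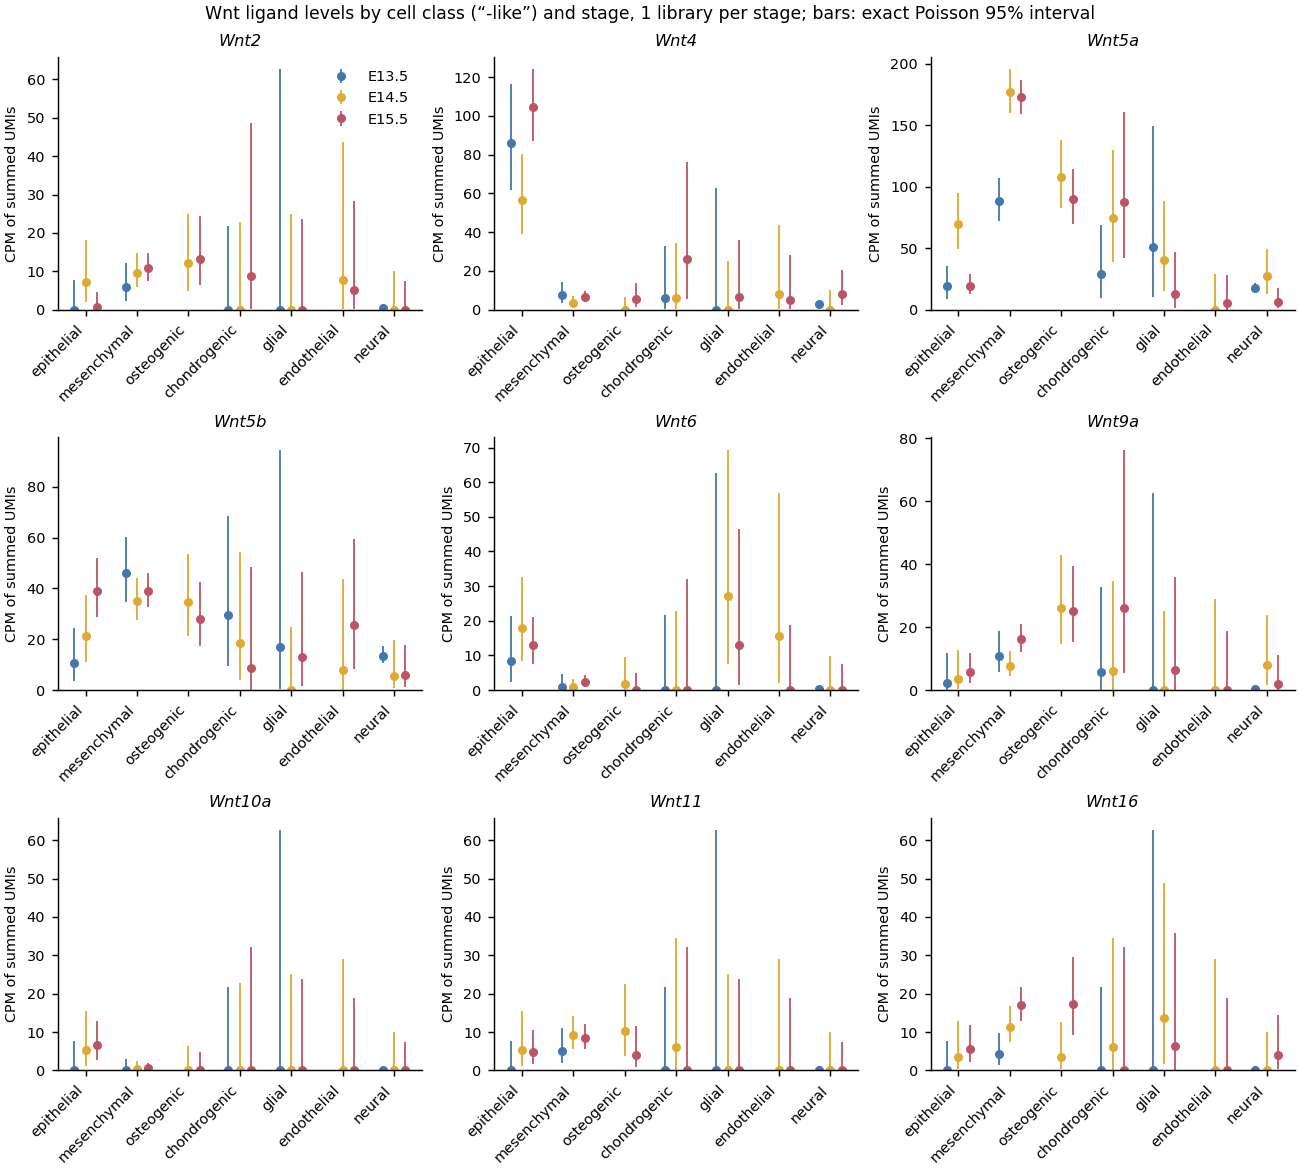
CPM of summed UMIs (linear axis, own scale per panel) for each ligand by cell class, with points coloured by stage and bars for the exact Poisson 95% interval; classes with under 20 cells in a library are left out. Epithelial-like cells stand above the other classes for Wnt4 (56.9 to 104 CPM), and Wnt5a is 88.3 to 177 CPM in mesenchymal-like cells.

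Of the ligands called higher in the epithelium, Wnt4 had the highest level there. Epithelial-like cells held 41 Wnt4 UMIs at E13.5 (86.0 CPM, 61.7 to 117), then 32 (56.9 CPM, 38.9 to 80.3) and 128 (104 CPM, 87.1 to 124). The mesenchymal lineage held 11, 10 and 34 UMIs, or 6.96, 3.02 and 6.66 CPM. Of the 34, 6 were in a single mesenchymal-like cell of 38342 UMIs with 8 epithelial markers, and 21 were in cells with fewer than 3 such markers. The epithelium was therefore the higher of the 2 tissues at each stage, by 12.4-fold (6.24 to 26.6), 18.8-fold (9.04 to 43.0) and 15.7-fold (10.7 to 23.6). The E15.5 log2 ratio was 3.78 with all cells, 4.47 without cells that carry at least 3 markers of the other tissue and 4.61 with the mean over cells of per-cell CPM. At E13.5 a single cell carried 9 of the 41 UMIs, and without it the level was 68.3 CPM and the difference 9.82-fold (4.82 to 21.6). Of each library's Wnt4 UMIs, 45.6%, 74.4% and 74.9% were in epithelial-like cells. In cells thinned to 1500 UMIs, 9.57%, 9.48% and 16.4% of epithelial-like cells had a Wnt4 UMI, beside 14.7%, 14.3% and 26.3% without thinning. The unthinned shares in myeloid-like cells, taken as a reference class, were 0%, 0% and 0.855%, where 0 of 33 and 0 of 78 cells allow up to 9.09% and 3.85%. Median UMIs per cell were 2329, 2291 and 2111 in epithelial-like and 2060, 1776 and 1651 in myeloid-like cells.

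Wnt6 was found in few molecules, mostly epithelial. Epithelial-like cells held 4, 10 and 16 Wnt6 UMIs (8.39, 17.8 and 13.1 CPM) and the mesenchymal lineage 1, 3 and 8 (0.633, 0.905 and 1.57 CPM). The difference was 13.3-fold (1.31 to 653), 19.6-fold (5.06 to 111) and 8.34-fold (3.37 to 22.5). Its mean level at E13.5 was under the minimum of 5 CPM. In myeloid-like cells Wnt6 had 0 UMIs at every stage, which allows up to 27.8, 16.1 and 9.97 CPM. Wnt10a, the neighbour of Wnt6, was the sparsest of the 9. It was not detected in either tissue at E13.5, which allows up to 6.29 CPM in epithelial-like cells and 1.90 CPM in the lineage. On E14.5 each tissue had 3 UMIs (5.33 and 0.905 CPM). On the last day there were 8 against 3 (6.53 and 0.587 CPM), a ratio of 11.1 (2.67 to 65.0). Its mean over the 2 tissues stayed under 5 CPM, so it entered no count between them.

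**Figure D2:**
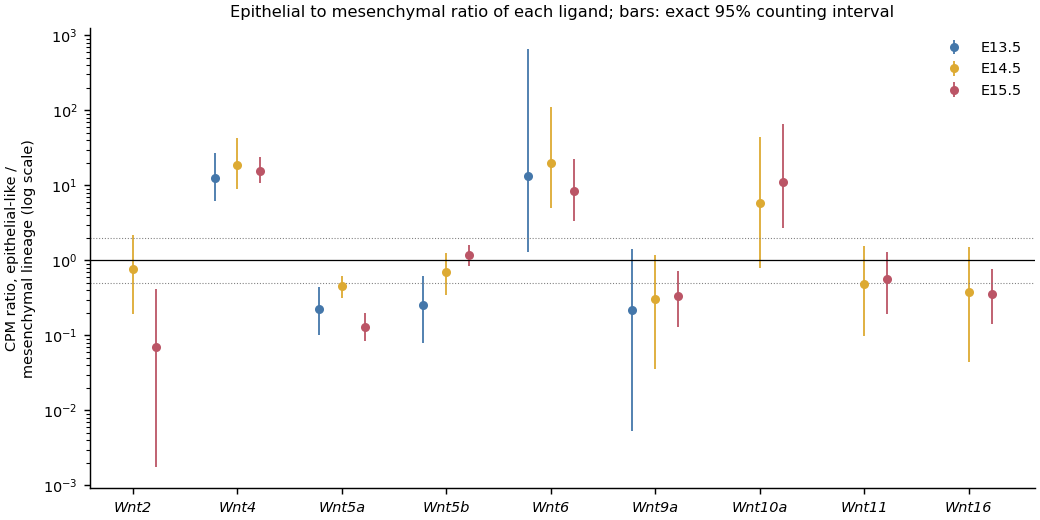
Ratio of CPM in epithelial-like cells to CPM in the mesenchymal lineage (log axis) for each ligand and stage, with the exact 95% counting interval; the solid line marks equal levels and the dotted lines 2-fold, and pairs with 0 UMIs on either side are not drawn. Wnt4 and Wnt6 lie above the line at all 3 stages and Wnt5a below it, while Wnt5b moves from 0.255 at E13.5 to 1.17 at E15.5.

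Within the epithelium, Wnt6 and Wnt10a UMIs were nearly all in 1 cluster. Epithelial-like cells formed a keratin-rich cluster led by Krtdap, Krt5 and Krt15 (20, 54 and 174 cells), a second cluster led by Bpifa1 and Aox2 (136, 103 and 141 cells), and a small one with the cilia gene Foxj1 (0, 11 and 16 cells). The keratin-rich cluster held 3, 10 and 16 Wnt6 UMIs against 1, 0 and 0 in the Bpifa1 cluster. With the floor of 3 counts for a class at 0, Wnt6 was at least 7.83-fold and at least 5.43-fold higher in keratin-rich cells of E14.5 and E15.5. Wnt10a had 0, 3 and 8 UMIs in the keratin-rich cluster and 0 in the Bpifa1 cluster at each stage, at least 2.71-fold higher at E15.5. The Foxj1 cluster had 0 UMIs of both, which with its depth allows up to 49.8 and 28.9 CPM on the last 2 days.

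Wnt4 was shared more evenly between the epithelial clusters, and its pattern differed by stage. At E13.5 the keratin-rich cluster had 6 UMIs (79.0 CPM) and the Bpifa1 cluster 35 (87.3 CPM), a ratio of 0.906 (0.311 to 2.18). At E14.5 the counts were 22 and 6 (147 and 17.0 CPM), a ratio of 8.61 (3.38 to 25.9). At E15.5 they were 83 and 38 (149 and 67.2 CPM), a ratio of 2.22 (1.50 to 3.35). Keratin-rich cells were thus higher at the later stages, and not distinguishable from the other cluster at E13.5 with 20 cells. By the 2-fold criterion 2, 5 and 4 ligands were higher in keratin-rich cells and 0, 1 and 0 lower, where 23.0%, 18.1% and 14.8% of all genes were higher and 19.4%, 17.9% and 13.6% lower. Wnt10a is among the 5 and the 4, and several of those calls rest on 1 to 6 UMIs. The ligand genes were left out when the cells were clustered, but genes that vary with them were not.

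**Figure D3:**
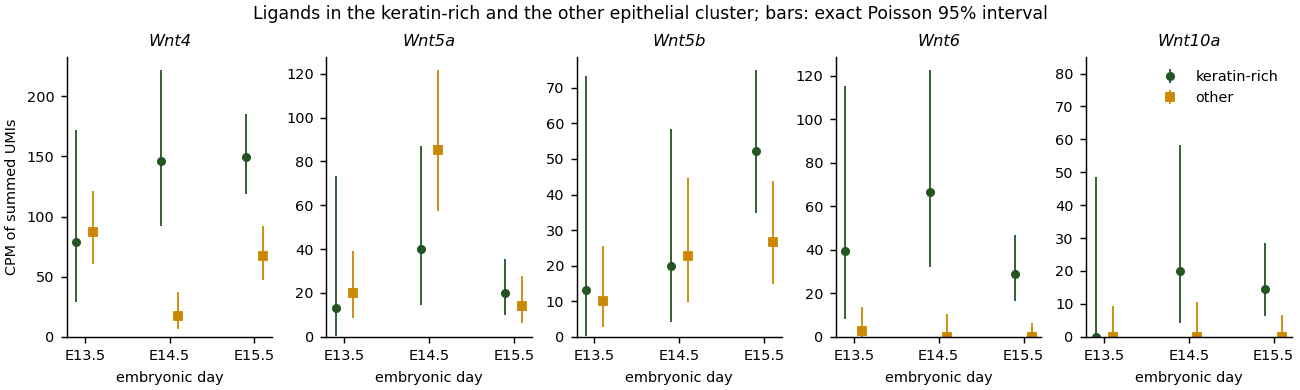
CPM of summed UMIs (linear axes, own scale per panel) by stage for 5 ligands in the keratin-rich (circles) and the Bpifa1-led other (squares) epithelial cluster, with exact Poisson 95% intervals. Wnt6 and Wnt10a are at 0 in the other cluster on the last 2 days, and Wnt4 is higher in the keratin-rich cluster at those stages (147 and 149 CPM against 17.0 and 67.2).

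Wnt5a, which signals through Ror2 and Frizzled receptors, was on the mesenchymal side at every stage. The mesenchymal lineage held 131 Wnt5a UMIs at E13.5 (82.9 CPM, 69.3 to 98.3), then 511 (154 CPM, 141 to 168) and 764 (150 CPM, 139 to 161). Epithelial-like cells held 9, 39 and 24 UMIs, or 18.9, 69.3 and 19.6 CPM. The epithelial level was 0.228 (0.102 to 0.446), 0.450 (0.316 to 0.623) and 0.131 (0.0834 to 0.196) of the mesenchymal one. In the thinned cells, 11.8%, 18.8% and 18.3% of lineage cells had a Wnt5a UMI, against 2.61%, 4.31% and 3.56% of epithelial-like cells; without thinning the shares were 14.53%, 25.5% and 27.7%, against 5.13%, 13.1% and 6.04%.

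The epithelial Wnt5a value was highest at E14.5. It was 3.67-fold above E13.5 (1.75 to 8.62), and E15.5 was 0.283 of it (0.163 to 0.482). One cell held 7 of the 39 UMIs, and without it the E14.5 level was 58.4 CPM, 3.09-fold above E13.5 (1.44 to 7.37). By cluster, 30 of the 39 UMIs were in the Bpifa1 cluster (85.1 CPM, 57.4 to 122) and 6 in the keratin-rich one (40.0 CPM, 14.7 to 87.0). All 12 mesenchymal markers were detected in epithelial-like cells at each stage, at a summed 203, 951 and 1323 CPM, or 6.84%, 10.0% and 12.0% of their lineage level, beside 12.5%, 13.7% and 12.6% in myeloid-like cells. At E14.5, 25 of the 168 epithelial-like cells had at least 3 mesenchymal markers, and the others held 21 of the 39 Wnt5a UMIs. The cells left out were deeper, with a median of 3590 UMIs against 2038. At E15.5 the marker sum was higher than at E14.5 while Wnt5a was lower, with 11 of 24 UMIs in the cells that remained. Myeloid-like cells had 1, 4 and 14 Wnt5a UMIs (9.27, 21.4 and 46.5 CPM), 7 of the last 14 in a single cell, beside 18.9, 69.3 and 19.6 CPM in the epithelium. The per-cell marker gate gave a log2 ratio of -3.84 for epithelial to mesenchymal Wnt5a at E14.5, and thinning to 1500 UMIs gave -2.24, beside -1.14. The part of mesenchymal RNA in the epithelial Wnt5a level was not tested further.

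Wnt5b was spread over both tissues. The lineage held 65, 102 and 171 Wnt5b UMIs (41.1, 30.8 and 33.5 CPM) and epithelial-like cells 5, 12 and 48 (10.5, 21.3 and 39.2 CPM). The ratio of epithelium to lineage was 0.255 (0.0801 to 0.626), 0.693 (0.347 to 1.26) and 1.17 (0.831 to 1.62). The epithelium was the lower tissue at E13.5, and the 2 were not distinguishable later by these counts. The E15.5 ratio depends on how cells are chosen, with a log2 value of 0.22 here, 1.12 under a per-cell marker gate, 0.96 with each library clustered alone and -0.64 with cells thinned to 1500 UMIs. Within the epithelium the E15.5 level of Wnt5b was 3.74 times that of E13.5 (1.49 to 12), or 3.15-fold (1.24 to 10.2) without the 1 cell that held 8 of its 48 UMIs. At E15.5 the keratin-rich cluster had 29 UMIs and the Bpifa1 cluster 15 (52.2 and 26.5 CPM), a ratio of 1.97 (1.02 to 3.95).

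The Wnt5b value of the mesenchymal lineage at E15.5 rested largely on 2 cells. One mesenchymal-like cell held 51 Wnt5b UMIs among its 2893 UMIs and another held 19 among 4277. Of the other lineage cells with a Wnt5b UMI at E15.5, 69 had 1, 7 had 2 and 6 had 3. Without both cells the lineage held 101 UMIs, or 19.8 CPM (16.1 to 24.1), and the epithelium was 1.98-fold higher (1.37 to 2.82) rather than about equal. Without the first cell alone the values were 23.5 CPM and 1.67-fold (1.17 to 2.35). Both ratios kept the epithelial-like cell with the most Wnt5b, which held 8 UMIs. Leaving that cell out put the epithelium at 33.0 CPM (23.6 to 44.9), so trimming the lineage alone enlarges the difference. The first cell also set the place of the cluster led by Cntn6 and Msx1, which had the highest Wnt5b of all clusters with it (74 UMIs, 68.1 CPM) and 23 UMIs (21.2 CPM, 13.46 to 31.9) without it. The highest was then the Ccl21a cluster (56 UMIs, 50.2 CPM, 37.9 to 65.2).

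Wnt11, a further ligand that acts on cell movement, was sparse. Most of its UMIs were in the mesenchymal lineage, which was also the larger of the 2 tissues. The lineage held 7, 36 and 45 Wnt11 UMIs (4.43, 10.9 and 8.81 CPM) and epithelial-like cells 0, 3 and 6. On the last 2 days the epithelium was at 0.491 (0.0967 to 1.55) and 0.556 (0.194 to 1.31) of the lineage, so the tissues were not distinguishable. By cluster Wnt11 was highest in the undivided lineage cluster led by Dqx1 and Ubash3a (22 UMIs, 17.7 CPM, 11.1 to 26.8), next to the cluster led by Klhl1 (15 UMIs, 10.1 CPM, 5.63 to 16.6), with overlapping intervals.

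Wnt2, Wnt9a and Wnt16 UMIs came mostly from the mesenchymal lineage, except Wnt2 at E13.5 (7 of 15). The lineage held 46.7%, 79.5% and 95.2% of the Wnt2 UMIs of the 3 libraries, 65.2%, 81.2% and 90.7% of those of Wnt9a and 62.5%, 83.8% and 89.0% of those of Wnt16. It made up 18.3%, 69.3% and 68.5% of all cells, so these shares also vary with the mix of cells. For Wnt2 the lineage had 7, 31 and 59 UMIs (4.43, 9.35 and 11.6 CPM) and the epithelium 0, 4 and 1. The E15.5 epithelium was at 0.0706 of the lineage (0.00176 to 0.409), while at E14.5 the ratio was 0.760 (0.195 to 2.15). Lineage Wnt9a was 15, 39 and 88 UMIs (9.49, 11.8 and 17.2 CPM) against 1, 2 and 7 in the epithelium, with ratios of 0.221, 0.302 and 0.332 whose intervals reach past equality except at E15.5 (0.130 to 0.712). Thinning to 1500 UMIs ends that call, with a log2 ratio of -0.47 in place of -1.44. For Wnt16 the lineage had 5, 31 and 81 UMIs (3.16, 9.35 and 15.9 CPM) and the epithelium 0, 2 and 7, with a ratio at E15.5 of 0.360 (0.140 to 0.777). Of those 7 UMIs, 1 was in a cell with fewer than 3 mesenchymal markers, and without the cells that carry at least 3 markers of the other tissue the log2 ratio was -2.88 in place of -1.33.

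Within the lineage these ligands had different leading clusters. Wnt16 stood highest in the mesenchymal-like cluster led by Cdh20 and Pcdh15, with the transcription factor gene Meox2 among its leading genes (32 UMIs, 36.9 CPM, 25.2 to 52.0), while the Klhl1 cluster, which also had Rspo2 and Fgf10, had 19 UMIs (12.8 CPM, 7.68 to 19.9). At E15.5 the Klhl1 cluster (14.55 CPM) was below the Ccl21a (25.6 CPM, 3 UMIs) and Top2a clusters (23.1 CPM, 10 UMIs) and osteogenic-like cells (17.2 CPM), with overlapping intervals. The Cdh20 cluster gave 37.8 and 36.7 CPM on the last 2 days, from 13 and 19 UMIs, and had 2 cells at E13.5. Over the 3 libraries Wnt2 was highest in the Klhl1 cluster (24 UMIs, 16.1 CPM) and the cluster led by Pgm5 and Itga8 (21 UMIs, 15 CPM), and low in the Cdh20 cluster (1 UMI). The first rank came from E14.5 (19.8 against 13.2 CPM), and at E15.5 the Klhl1 cluster (13.2 CPM) was below the Pgm5 (16.3 CPM) and the undivided cluster (14.3 CPM), all with overlapping intervals. Wnt9a, pooled in the same way, was highest in osteogenic-like cells (35 UMIs, 25.1 CPM, 17.5 to 34.8) and the Pgm5 cluster (31 UMIs, 22.2 CPM, 15.1 to 31.5). By stage the pair had 26.0 and 13.2 CPM at E14.5 and 25.2 and 25.5 CPM at E15.5, so the 2 were not distinguishable on the last day. Pooled Wnt5a was highest in the Cntn6 cluster, which had Msx1 and Tfap2b among its leading genes (258 UMIs, 238 CPM, 209 to 268), with the Pgm5 cluster at 183 CPM (162 to 207). The order was the reverse at E13.5 with under 20 cells in each (58.1 and 297 CPM), the intervals overlapped at E14.5 (225 and 191 CPM), and at E15.5 they did not (251, 216 to 290, and 176, 150.5 to 204). These are the largest of many cluster values and carry no test.

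**Figure D4:**
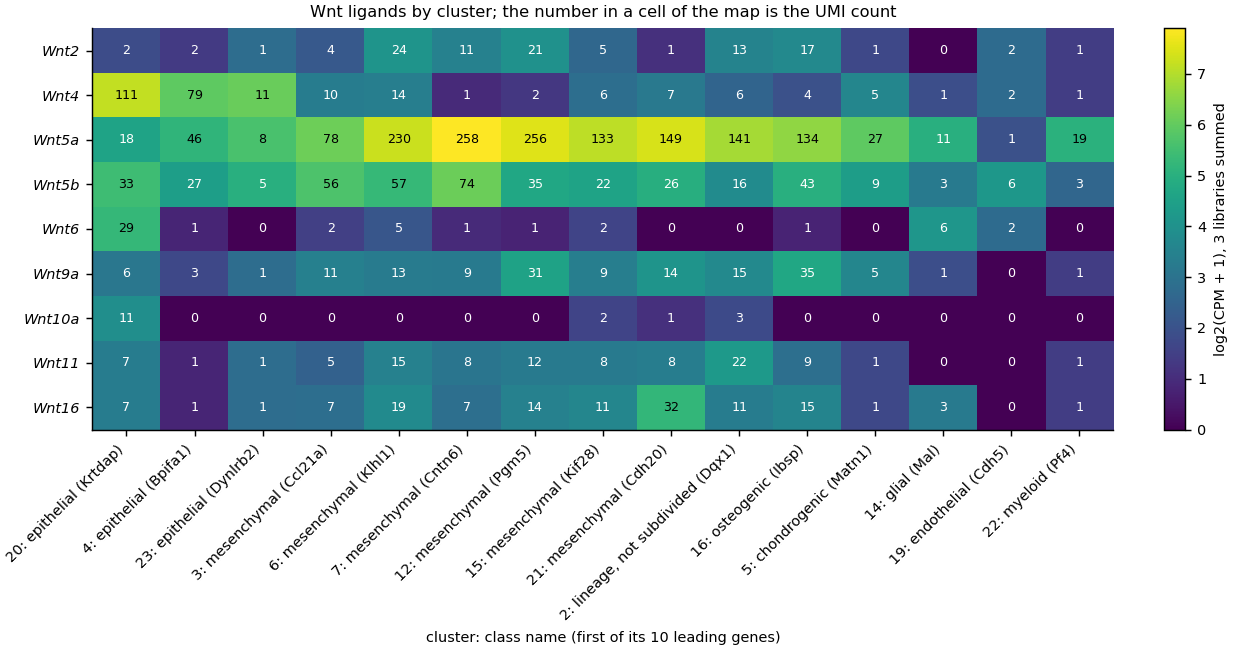
Level of each ligand, as log2(CPM + 1) with the 3 libraries summed, in the epithelial, lineage, glial, endothelial and myeloid clusters; each column is a cluster with its class name and first leading gene, and the printed number is its UMI count. Wnt4, Wnt6 and Wnt10a are highest in the Krtdap cluster, Wnt5a in the Cntn6 cluster (258 UMIs) and Wnt16 in the Cdh20 cluster (32 UMIs).

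Against mesenchymal-like cells, the bone-forming branch was called higher in Wnt9a and lower in Wnt16, each at E14.5 alone. Osteogenic-like cells numbered 16, 231 and 289, and the 16 of E13.5 had 4 Wnt5a, 2 Wnt5b and 1 Wnt9a UMIs. They held 15 Wnt9a UMIs at E14.5 (26.0 CPM) against 17 in mesenchymal-like cells (7.76 CPM), 3.35-fold higher (1.56 to 7.14). At E15.5 the counts were 19 and 57 (25.2 and 16.1 CPM), a ratio of 1.56 (0.878 to 2.67), which does not separate the classes. Wnt5a was lower in osteogenic-like cells at both stages, at 0.607 (0.457 to 0.796) and 0.522 (0.400 to 0.671) of the mesenchymal-like level, short of the 2-fold criterion. By that criterion Wnt9a was the 1 ligand higher and Wnt16 the 1 lower at E14.5 (2 against 25 UMIs, a ratio of 0.304, 0.0349 to 1.22), and none was either at E15.5, beside 3.97% and 3.88% of all genes higher and 7.78% and 7.30% lower. Chondrogenic-like cells, with 57, 64 and 30 cells, had 5, 12 and 10 Wnt5a UMIs (29.4, 74.4 and 87.2 CPM), at 0.333 (0.106 to 0.802), 0.420 (0.215 to 0.743) and 0.505 (0.241 to 0.935) of the mesenchymal-like level, and 5, 3 and 1 Wnt5b UMIs. In them 0, 0 and 1 ligands were called higher than in mesenchymal-like cells (Wnt4 at E15.5, 3 UMIs) and 1, 1 and 2 lower, beside 11.0%, 10.7% and 13.53% of all genes higher and 16.9%, 20.3% and 18.1% lower.

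The glial-like, endothelial-like and myeloid-like classes were small, and few ligands in them were above a handful of molecules. Glial-like cells (25, 47 and 69), the class of Schwann cells and their precursors, held 0, 4 and 2 Wnt6 UMIs (0, 27.1 and 12.9 CPM), and mesenchymal-like cells 1, 2 and 8 (0.841, 0.913 and 2.26 CPM). The ratio on the last 2 days was 29.7 (4.26 to 328) and 5.69 (0.589 to 28.5). Of the 12 epithelial markers, 1, 6 and 2 were detected in glial-like cells, at 0.719%, 2.89% and 0.373% of their epithelial level, with Krt5, Krt14 and Krt8 at 0 at each stage. Mesenchymal markers reached 26.9%, 60.4% and 53.5% of their lineage level there, beside which glial-like Wnt5a was 3, 6 and 2 UMIs (51.0, 40.7 and 12.9 CPM). Endothelial-like cells had 48 and 62 cells at the later stages, with 0 and 1 Wnt5a UMIs, and 0 UMIs there allows up to 23.6 CPM, below the 177 CPM of mesenchymal-like cells. They held 1 and 5 Wnt5b and 2 and 0 Wnt6 UMIs. Against mesenchymal-like cells, glial-like cells had 0, 1 and 1 ligands called higher, the 1 being Wnt6, and 2, 2 and 5 lower, beside 20.0%, 13.51% and 15.4% of all genes higher and 27.4%, 22.03% and 22.8% lower. Endothelial-like cells of the last 2 days had 1 (Wnt6) and 0 higher and 3 and 3 lower, beside 16.4% and 16.5% of all genes higher and 25.6% and 23.8% lower. Myeloid-like cells were taken as a reference class but were not free of the ligands, with 19 Wnt5a UMIs over the 3 libraries. They had 0 higher at each stage and 3, 2 and 5 lower, beside 20.1%, 20.7% and 21.6% of all genes higher and 24.5%, 25.5% and 29.2% lower.

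Neural-like cells made up most of the E13.5 library, and at that stage they held 84 Wnt5a and 64 Wnt5b UMIs, 25.8% and 33.3% of the library's molecules of these ligands. Per UMI the levels were low, at 17.8 CPM for Wnt5a and 13.6 CPM for Wnt5b, or 0.202 (0.150 to 0.272) and 0.294 (0.202 to 0.429) of mesenchymal-like cells. Later they held 10 and 3 Wnt5a UMIs (27.0 and 6.05 CPM). Different clusters make up the class over time: the cluster led by Fstl5 and Tex15 held 39 of 1958, 120 of 134 and 150 of 184 neural-like cells. By the 2-fold criterion 4, 3 and 5 ligands were lower in neural-like than in mesenchymal-like cells and 0 higher, beside 14.4%, 20.5% and 21.2% of all genes lower and 12.1%, 17.5% and 19.2% higher.

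Ordered by mean CPM over the libraries with at least 20 cells, the epithelial-like, mesenchymal-like, osteogenic-like, chondrogenic-like, glial-like, endothelial-like and neural-like classes, without the undivided lineage cluster, gave epithelial-like cells first for Wnt4 (82.4 ± 24.0, SD, n = 3), with a lowest value of 56.9 above the highest chondrogenic-like value of 26.2. Mesenchymal-like cells came first for Wnt5a (146 ± 50.04, SD, n = 3), Wnt5b (40.1 ± 5.64), Wnt11 (7.55 ± 2.19) and Wnt16 (10.9 ± 6.39), although the undivided cluster, outside this order, was at 6.41, 23.3 and 17.2 CPM for Wnt11. Osteogenic-like cells came second for these 4, with ranges that overlapped except for Wnt5b, whose E15.5 level in mesenchymal-like cells is 19.3 CPM without the 2 cells of high Wnt5b, and first for Wnt9a (25.6 ± 0.602, n = 2) and Wnt2 (12.7 ± 0.780, n = 2). Wnt9a overlapped the next class, chondrogenic-like. For Wnt2 the next class was mesenchymal-like, whose range includes the low E13.5 value of 5.89 CPM, and at matched stages the ratio was 1.27 (0.455 to 3.09) and 1.23 (0.548 to 2.52), so the classes were not separated. For Wnt6 glial-like (13.3 ± 13.6) and epithelial-like cells (13.1 ± 4.69) could not be ordered. Wnt10a was detected in epithelial-like (3.95 ± 3.48) and mesenchymal-like cells (0.341 ± 0.300) alone among these 7 classes, with ranges that overlapped. The spread here is over stages, not over replicates.

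Between stages, within the mesenchymal lineage, 7 of the 9 ligands passed the minimum. Wnt2 and Wnt16 were the 2 ligands higher at E15.5 when set against E13.5, and 0 were lower, beside 10.7% and 4.37% of all genes. Wnt11 and Wnt16 were the 2 higher at E14.5 when set against E13.5, and 0 were lower, beside 9.0% and 2.72%. Between the last 2 days 0 ligands were called in either direction, beside 0.953% and 1.38%. The ratio of the last to the first day was 5.01 for Wnt16 (2.06 to 15.9) and 2.61 for Wnt2 (1.19 to 6.77), from 5 and 7 UMIs at E13.5. For Wnt5a it was 1.80 (1.50 to 2.19), and for E14.5 over E13.5 it was 1.86 (1.53 to 2.27). The median log2 ratio of the 7 over the 3 days was 0.84, beside 0.01 for all genes. Summed over the same lineage cells, the 12 mesenchymal markers were at 2973, 9469 and 11062 CPM.

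Holding the mix of mesenchymal clusters fixed moved 8 of the 27 between-stage log2 ratios out of their counting intervals, and over the 3 days that of Wnt5a alone. In the Ccl21a cluster, which dominates E13.5, Wnt5a was 74.7 CPM (57.4 to 95.6), 64.8 (31.1 to 119) and 42.7 (13.9 to 99.7), so it was no higher at the later stages. The cycling cluster with Top2a went from 75.8 CPM (44.9 to 120) to 187 (141 to 243) and 139 (106 to 179). With the mix of the 4 lineage clusters that have at least 20 cells at every stage held fixed, the log2 ratio over the 3 days was 0.23 for Wnt5a instead of 0.84, and 2.40 for Wnt16 instead of 2.02. For Wnt2 it was 0.99 instead of 1.21, and 0.97 without the Ccl21a cluster, both under the 2-fold criterion, and 3.76 with cells thinned to 1500 UMIs, while Wnt9a (1.04) and Wnt11 (1.05) passed it at the fixed mix. The step at which Wnt16 differed changed too: its fixed-mix log2 ratio was 0.35 for E14.5 over E13.5 (1.31 with all clusters), short of 2-fold, and 2.04 for E15.5 over E14.5 (0.70 with all clusters). Wnt2 likewise had -0.55 and then 1.53, beside 0.93 and 0.28 with all clusters. Those 4 clusters hold 90.8%, 37.1% and 28.9% of the lineage cells. Wnt5b had a log2 ratio over the 3 days of -0.29 with all cells and -1.02 without the 2 cells of high Wnt5b, where it was 0.482-fold (0.349 to 0.668). The sign of that ratio depends on the setting, since it was 0.47 with cells thinned to 1500 UMIs and 0.22 without the Ccl21a cluster.

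**Figure D5:**
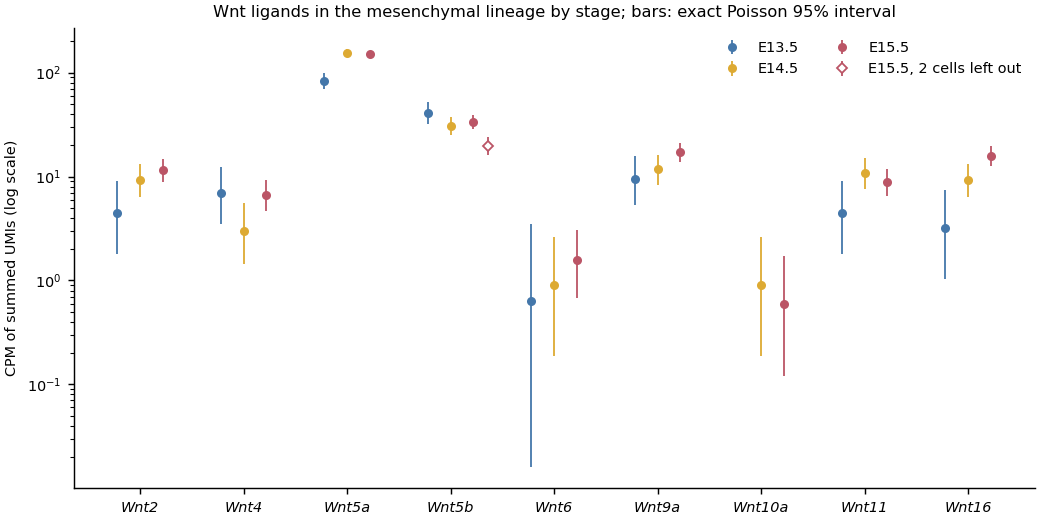
CPM of summed UMIs in the mesenchymal lineage (log axis) for each ligand at the 3 stages, with exact Poisson 95% intervals; Wnt10a at E13.5 is 0 and not drawn, and the open diamond is Wnt5b at E15.5 without the 2 cells that held 70 of its 171 UMIs. Wnt16 goes from 3.16 to 15.9 CPM, and Wnt5a from 82.9 to 150 CPM, between the first and the last day.

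In epithelial-like cells, where 4 ligands passed the minimum over the stages, Wnt5b was the 1 ligand higher on the last day when set against the first, and 0 were lower, beside 18.3% and 5.95% of all genes. Wnt5a was the 1 higher on the second day when set against the first and 0 were lower, beside 17.0% and 6.74%. It was also the 1 lower on the last day when set against the second while 0 were higher, beside 5.0% and 7.4%. Wnt4 of E15.5 stood 1.84-fold above E14.5 (1.24 to 2.80), short of 2-fold, and 1.22-fold above E13.5 (0.849 to 1.77). The keratin-rich cluster made up 20 of 156, 54 of 168 and 174 of 331 of these cells.

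The rest of the pathway showed which tissue holds the partners of these ligands. Of 10 other Wnt ligand genes, Wnt7b, an epithelial ligand, was the 1 that passed the minimum, and it was higher in the epithelium at each stage (6, 11 and 24 UMIs, or 12.6, 19.5 and 19.6 CPM, against 3.16, 1.51 and 1.57 CPM). Porcn and Wls, needed to secrete any of them, were called in neither direction, and Wls was at 291, 206 and 265 CPM in the epithelium and 208, 236 and 234 CPM in the lineage. Of 10 Frizzled receptor genes, 9, 8 and 8 passed the minimum, of which 4, 3 and 4 were higher in the epithelium and 3, 2 and 1 lower. Fzd3, Fzd6 and Fzd8 were higher at all 3 stages, with Fzd6 12.8-fold (5.43 to 34.8), 5.20-fold (2.42 to 11.1) and 6.00-fold (3.5 to 10.4) higher. Fzd2 was lower at all 3, at 0.352, 0.463 and 0.342 of the lineage.

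Of 6 co-receptor and receptor kinase genes, 0 were higher and 3, 2 and 2 lower. Ror2, the receptor kinase for Wnt5a, was at 18.9, 44.4 and 75.9 CPM in the epithelium and 190, 269 and 355 CPM in the lineage, or 0.0991, 0.165 and 0.214 of it, and Ror1 was at 0.247, 0.420 and 0.431 of it. Of 7 genes of R-spondins, which raise Wnt receptor levels, and their receptors, 4, 6 and 6 passed the minimum. Among those, 1, 1 and 0 were higher and 2, 3 and 3 lower. Rspo2 and Rspo3 were lower at all 3 stages (Rspo3 at 0.0699, 0.0845 and 0.0971 of the lineage), and the receptor gene Lgr4 was 2.78-fold, 3.60-fold and, short of the criterion, 1.81-fold higher in the epithelium. The shares of all genes called in these comparisons are those given for the ligands.

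The genes with the profile most like each ligand were found by Pearson's r of log2(CPM + 1) over 19 class-by-stage profiles, among 12109 genes; the profiles share 3 libraries, so r is a description. Wnt5a was nearest to Lrp1 (r = 0.918), Fzd2 (0.915) and Gria3 (0.910), of which Lrp1 is a large endocytic receptor and Fzd2 a Frizzled receptor. Wnt4 was nearest to Hspb1 (0.839), Krt14 (0.831), a basal keratin, and Lad1 (0.827). Wnt9a was nearest to Gm32618 (0.911), Prdm6 (0.910) and Cyp26b1 (0.907), which breaks down retinoic acid. Wnt10a, with a mean of 0.678 CPM, was nearest to Scgb1c1 (0.968), Bpifa1 (0.946) and Adam28 (0.903), although Bpifa1 leads the epithelial cluster in which Wnt10a was at 0. Wnt5b was nearest to Kptn (0.833), Notch3 (0.829) and Pias2 (0.825), and Wnt2 to Lepr (0.880), Ankrd27 (0.863) and Elf4 (0.852). Wnt6 (Ccne2 0.863, Nck2 0.823 and Pmm2 0.802), Wnt11 (Ccbe1 0.881, Tmem51 0.862 and Trpc5 0.834) and Wnt16 (Pnpla7 0.841, Mc5r 0.829 and Fam129a 0.803), like Wnt2 and Wnt10a, had counts of a few UMIs in most profiles.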

How the data were processed

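The authors deposited 1 matrix a stage of raw counts of UMIs, with genes in rows and cells in columns. Cell Ranger 6.1.2 wrote it, per the file headers, on mm10 per the submitters' processing notes; the annotation and strand setting are not given in the sources used here. A filter at 500 genes took out 544, 304 and 473 barcodes, and 0 had over 20% mitochondrial counts. Doublets were scored with scrublet in scanpy 1.11.5. Its automatic threshold called 0, 4 and 1 cells, too few to have worked, so the top scores were left out at 0.8% per 1000 barcodes (109, 25 and 56 cells).

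The libraries were clustered together (10000 counts per cell, log scale, 2000 variable genes without the 19 Wnt genes, 30 components, 15 neighbours, Leiden resolution 1, igraph 0.11.9), with no correction between libraries. A cluster was named for the marker list of which it held the highest share (at least 3 markers, at 20 CPM or more), and stayed unnamed where another list had more markers among its 10 leading genes (464 cells with neuronal markers and Hbb-y). Set after seeing the data were the rules that a class with at least 3 markers among the 10 leading genes takes the name, that a competitor within the lineage gives an undivided lineage cluster, and that clusters deeper than 3 times their library's median stay unnamed. The 2-class calls use log2((CPM + 1) / (CPM + 1)), and ratio intervals are exact conditional binomial ones. Their code was run on simulated independent Poisson counts, the model that the intervals assume. Coverage where UMIs gather in single cells was therefore not tested. No replicate exists, so no test across genes was run. The members and lists were chosen with earlier results of these data known. All 9 ligands are named, with the 3 most similar genes of each and the pathway genes past 2-fold at all 3 stages; Wls, Porcn and Lgr4 values and single cells were added after values were seen. Shares use cells of at least 1500 UMIs, thinned to 1500, with Clopper-Pearson 95% intervals in the tables. Intervals and limits (3 counts for 0) cover counting error only. Alternatives cover gating, clustering, filters, thinning, weights, the added value, the fold and the cluster mix, and 3 were added after seeing the data (in the closing section).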

Additional observations from a re-analysis of the deposited data

How the results depend on the processing

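No paired analysis was possible because each stage has 1 library and the stages share no embryos. Alternative settings were run for ratios of epithelium to lineage and between stages of the lineage, and not for the other class or stage comparisons. Under the 13 planned and 3 added settings and the fixed cluster mix, no called ratio among those changed sign, and 115 of 130 counts stayed within 1.5 times. Over the settings that can move a ratio, 336 of 351 epithelium-to-lineage and 359 of 378 between-stage log2 ratios stayed inside the counting interval. The count of ligands higher in the epithelium at E13.5 (1) became 2 with the per-cell marker gate, with the mean over cells of per-cell CPM and with no minimum CPM. The count lower at E13.5 (3) became 1 with the mean over cells and 6 with no minimum. The count lower at E14.5 (3) became 1 with thinning to 1500 UMIs and with 5 CPM added, and 0 at 3-fold, and that at E15.5 (4) became 2 at 3-fold. In the lineage, the count higher on the last than on the first day (2) became 5 with the mean over cells and at 1.5-fold, and 1 with 5 CPM added, at 3-fold and without the cluster that holds most E13.5 lineage cells. Without the 2 cells of high Wnt5b, the count lower on the last than on the first day (0) became 1. Causes were not tested. The fixed mix moved 8 of 27 between-stage ratios. Over the last 2 days it gave log2 ratios of -0.18 for Wnt4, 1.53 for Wnt2 and 2.04 for Wnt16 (0.93, 0.28 and 0.70 with all clusters), and it ends the E14.5 call of Wnt16 (0.35) and the E15.5 call of Wnt2 (0.99). Thinning gave, over E13.5, 3.22 for Wnt2 at E14.5 (0.93), 3.76 for Wnt2 at E15.5 (1.21) and 0.47 for Wnt5b at E15.5 (-0.29, and 0.22 without the Ccl21a cluster). It gave -2.24 for epithelial Wnt5a at E14.5 (-1.14), and for the epithelium at E15.5 -0.47 for Wnt9a (-1.44), 4.69 for Wnt4 (3.78, and 4.61 with the mean over cells) and -0.64 for Wnt5b (0.22), which was 1.12 under the per-cell gate and 0.96 with libraries clustered alone. The per-cell gate found 22, 46 and 102 epithelial cells and gave a Wnt5a log2 ratio of -3.84 at E14.5, beside -1.14. Without cells that carry at least 3 markers of the other tissue, the Wnt16 log2 ratio of epithelium to lineage at E15.5 was -2.88, beside -1.33. Of 54 shares of cells, 14 left the thinned interval without thinning. Ligands at 1 to 10 UMIs in a class are limited by depth.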
